A study of Mus musculus with 7 samples.

Results

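Thymus RNA from mice carrying a mutation of Ikaros zinc finger 4 was compared with thymus RNA from mice carrying a mutation of Ikaros zinc finger 1. The comparison used 4 of the 7 libraries of the study, chosen by genotype: 2 ZnF4-/- and 2 ZnF1-/- libraries, both mutations homozygous. The 3 wild type libraries (C57BL/6 in the labels) served only to show which mutant had moved away from normal. All mice were 4 weeks old, untreated as far as the labels state, and every library was poly(A) RNA of a filtered suspension of the whole thymus. The strain background of the mutants, their sex and the number of animals per library are not given in the sources used here, so p-values measure the spread between these libraries, which may in part be technical. Of 16734 genes in the table, 10572 had a mean of at least 1 RPKM (read count scaled by transcript length and by library size) over the 4 mutant libraries and were tested.

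Ikaros, encoded by Ikzf1, is a DNA-binding zinc finger protein of lymphoid cells that acts largely through chromatin-remodelling complexes such as NuRD, and it is a tumour suppressor of developing T cells. Its DNA-binding domain holds a row of C2H2 zinc fingers, each a short peptide folded around a zinc ion by a pair of cysteines and a pair of histidines. The central fingers make the core contact with DNA, and the flanking fingers 1 and 4 are thought to adjust which sites are bound. A separate pair of fingers at the C terminus joins Ikaros to itself and to its relatives. The study asked which Ikaros functions need a given flanking finger.

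The finger sequences show how the mutated units differ. They are shown 5′ to 3′ from the mm9 genome (NCBIM37, chromosome 11, plus strand), read in the 9-exon transcript ENSMUST00000065433. Capitals mark the codons of the 2 cysteines and 2 histidines that hold the zinc.
Finger 1: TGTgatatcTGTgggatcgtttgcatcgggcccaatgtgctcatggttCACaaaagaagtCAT
Finger 2: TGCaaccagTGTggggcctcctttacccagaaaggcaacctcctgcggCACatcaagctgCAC
Finger 3: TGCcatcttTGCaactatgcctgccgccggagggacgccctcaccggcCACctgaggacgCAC
Finger 4: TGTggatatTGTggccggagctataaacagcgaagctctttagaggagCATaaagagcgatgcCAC
Finger 1 (chr11:11648508-11648570) lies within exon 5, which has 261 bases. Fingers 2 and 3 share exon 6, and finger 4 (chr11:11658215-11658280) lies within exon 7, which has 123 bases. The stretch from the first cysteine to the last histidine has 63 bases in fingers 1 to 3 and 66 in finger 4, which has a longer gap between its histidines. The table holds 1 value per gene, so it cannot show which exon an Ikzf1 transcript contains.

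The targeted gene was transcribed in all 7 libraries. Ikzf1 was at 183.02 and 194.30 RPKM in ZnF1-/-, 238.09 and 257.02 RPKM in ZnF4-/-, and 141.71 to 175.43 RPKM in wild type. Both ZnF4-/- values lay above the other 5. The log2 difference between the mutants was 0.39 (SE 0.10, adjusted p = 0.0496 by limma), just past the threshold. The adjusted p was 0.0838 when the wild type libraries shared in the spread, so the call was lost there.

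The libraries fell into a batch of 76 bp reads (replicate 1 of each genotype) and a batch of 50 bp reads (all others), so each mutant pair was compared within its batch. Xist, made by the inactive X chromosome, ranged from 90.57 to 109.21 RPKM with 76 bp reads and from 0.01 to 0.03 RPKM with 50 bp reads. The Y-linked Ddx3y ranged from 0.00 to 0.01 and from 13.20 to 17.44 RPKM. Batch and sex markers therefore change together, and each pair is matched for both. Genes at 1 RPKM or more numbered 10185 to 10695 per library. From the whole-read steps of low values the 76 bp depths were estimated, to 3 digits, at 20100000 reads for wild type, 14300000 for ZnF1-/- and 6310000 for ZnF4-/-. In these libraries 42.3% to 63.8% of the low values lay on such steps, where 11.3% to 12.3% would by chance, so the depths are approximate. The last puts 12.6 reads behind 1 RPKM of a 2000-base transcript in ZnF4-/- replicate 1. For 50 bp reads no depth could be estimated. Transcripts of double-positive thymocytes were abundant in every library: Rag1, a subunit of the recombinase, lay at 644.15 to 965.21 RPKM and Cd4 at 302.36 to 499.55 RPKM.

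The mutants differed at 944 genes, 8.93% of those tested, and most of these were higher in ZnF4-/-. The 632 higher genes (5.98%) had a median log2 difference of 1.06, and the 312 lower genes (2.95%) one of -0.63. At 1 log2 unit or more there were 344 higher and 60 lower genes, at 2 or more 86 and 6, and at 3 or more 17 and 0. All 944 had the same sign in both pairs, which the test favours. The higher genes had a median level of 5.58 RPKM over the mutant libraries and the lower genes one of 14.7 RPKM. Of the higher genes, 155 lay below 1 RPKM in ZnF1-/- on average. Such genes entered the test only through their ZnF4-/- values and so had to differ. Of the lower genes, 18 lay below 1 RPKM in ZnF4-/- on average and entered only through their ZnF1-/- values. This limit holds for every gene named below with a mean under 1 RPKM in 1 of the mutants. Calls are limma tests with the batch as a block, adjusted over all tested genes, at an adjusted p under 0.05.

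The number of calls depended strongly on the spread assumed. It was 825 (7.8%) with wild type sharing in the spread (762 in common), 190 without the batch block, and 0 by limma with no filter on low values, where 2599 genes had an unadjusted p under 0.05. Fits that left out 1 mutant library kept the wild type libraries, so their counts are to be read against the 825 (596 higher and 229 lower). They gave 357 calls without ZnF1-/- replicate 1 and 509 without ZnF1-/- replicate 2, and 834 and 886 without replicate 1 or 2 of ZnF4-/-. The lower genes numbered 60 without ZnF1-/- replicate 1 and 102 without ZnF1-/- replicate 2. Wherever a call is given below as lost without a library, this is the fit meant, and calls already lost with all 7 libraries are named. Without regard to any test, both ZnF4-/- libraries lay above both ZnF1-/- libraries at 1659 genes (15.7%) and below them at 1765 (16.7%). Among the calls, 602 of the higher and 281 of the lower genes had no overlap of RPKM between the mutants.

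**Figure D1:**
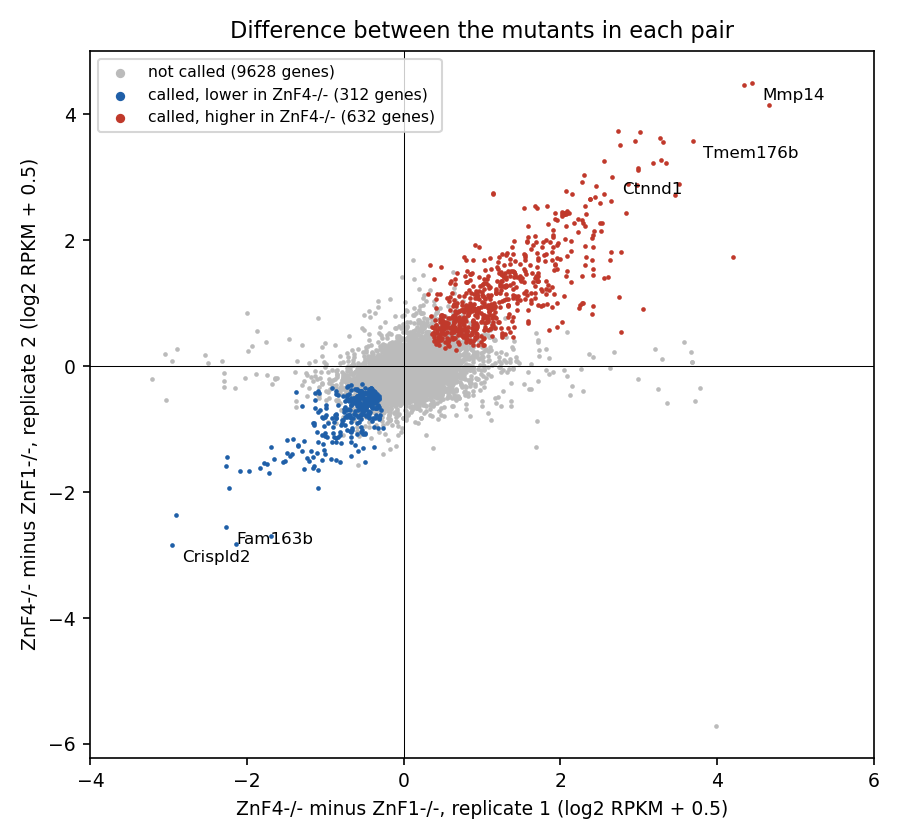
Log2 difference (RPKM + 0.5) between ZnF4-/- and ZnF1-/- in the 76 bp pair (horizontal) and in the 50 bp pair (vertical), 1 point per tested gene, with called genes in red (632 higher) and blue (312 lower). Mmp14 lies at the top right with about the same difference in both pairs, 4.45 and 4.50, and Slc15a2 lies alone at the bottom right.

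At most of the called genes, ZnF4-/- lay further from wild type than ZnF1-/- did. A mutant was counted as away from wild type when it lay more than 0.5 log2 from the wild type mean, with both batches weighted equally. Of the 632 genes higher in ZnF4-/-, 436 had ZnF4-/- away and ZnF1-/- near, 42 had ZnF1-/- away and ZnF4-/- near, 63 had the mutants on opposite sides, 32 had both on the same side, and 59 had neither away. Of the 312 lower genes, these numbers were 109, 50, 12, 13 and 128. The counts include the 155 higher genes that entered the test only through their ZnF4-/- values, where the filter itself favours ZnF4-/- as the mutant away. They also include the 18 lower genes that entered only through ZnF1-/-. The part of these genes in each count was not worked out. ZnF4-/- was the mutant further from wild type at 572 of the higher genes (90.5%) and 212 of the lower ones (67.9%), where the share over all tested genes was 58.4%. In a fit of all 7 libraries, ZnF4-/- differed from wild type at 939 genes (8.88%; 713 higher and 226 lower). ZnF1-/- differed from it at 105 genes (0.993%; 72 higher and 33 lower). Those contrasts share the wild type libraries.

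**Figure D2:**
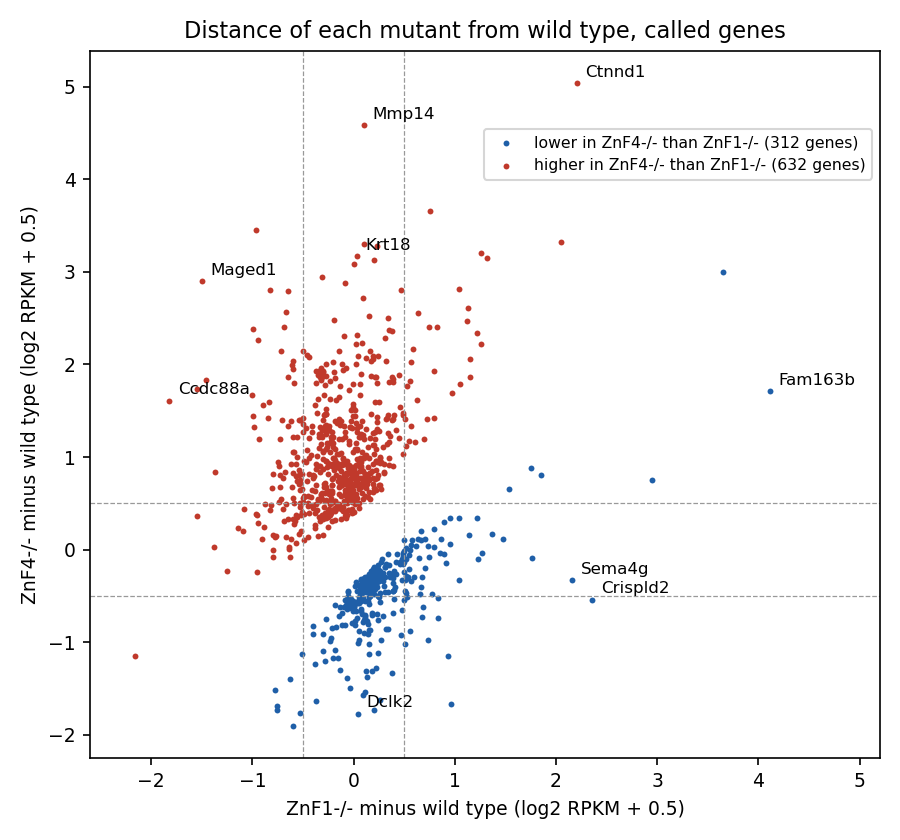
Distance of ZnF1-/- (horizontal) and ZnF4-/- (vertical) from the wild type mean in log2 (RPKM + 0.5), 1 point for each of the 944 called genes, red where ZnF4-/- was the higher mutant and blue where it was the lower. Dashed lines mark 0.5 log2 from wild type; the red points form a column above the origin, with 436 of 632 in the band where only ZnF4-/- is away.

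The largest differences were in genes that were low in ZnF1-/- and wild type thymus and high in ZnF4-/-. Mmp14, a membrane-anchored metalloproteinase that cleaves matrix collagen (chr14:55050441-55060095, plus strand), was at 1.44 and 2.81 RPKM in ZnF1-/- and 41.84 and 74.30 RPKM in ZnF4-/-. Wild type lay at 1.47 to 2.71 RPKM, inside the ZnF1-/- range. The mean was 27.3-fold higher in ZnF4-/- (log2 difference 4.47, SE 0.12, adjusted p = 6.55e-07). Maged1, an adaptor protein of the MAGE family (chrX:91780813-91787482, minus strand), was at 0.17 and 0.19 RPKM in ZnF1-/- and 13.03 and 14.69 RPKM in ZnF4-/-. Its wild type values of 1.24 to 1.65 RPKM lay between the mutants. The log2 difference was 4.40 (SE 0.19, adjusted p = 6.85e-06).

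Tmem176b and Tmem176a, neighbouring genes on chromosome 6 for related multi-pass membrane proteins, showed the same order. Tmem176b was at 5.28 and 7.43 RPKM in ZnF1-/-, 10.06 to 14.26 RPKM in wild type and 74.26 and 93.66 RPKM in ZnF4-/- (log2 difference 3.63, SE 0.11, adjusted p = 8.21e-07). Tmem176a was at 4.65 and 5.33 RPKM, 6.92 to 9.83 RPKM, and 49.27 and 70.97 RPKM (3.44, SE 0.12). Neither gene's mutant values overlapped wild type. Ccdc153, a coiled-coil protein gene, had the same pattern with 1.97 and 2.29 RPKM in ZnF1-/-, 6.05 to 9.40 in wild type and 23.62 and 26.64 in ZnF4-/- (3.28, SE 0.13). Ccdc88a, which encodes the actin-binding protein girdin, did too, with 0.23 and 0.11 RPKM, 1.30 to 2.41 RPKM, and 6.73 and 6.71 RPKM (3.44, SE 0.22).

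Krt18, a keratin of simple epithelia, was at 0.69 and 0.62 RPKM in ZnF1-/-, 0.49 to 0.79 RPKM in wild type and 7.58 and 12.35 RPKM in ZnF4-/- (log2 difference 3.14, SE 0.22, adjusted p = 8.44e-05). Adam19, a membrane protease of the ADAM family, was at 1.28 and 1.73 RPKM in ZnF1-/- and 19.07 and 14.20 RPKM in ZnF4-/-, with wild type at 2.54 to 3.17 RPKM (3.09, SE 0.19). Lmcd1, a LIM domain protein gene, was listed at 0.00 in all wild type libraries, 0.04 and 0.03 RPKM in ZnF1-/- and 5.68 and 3.44 RPKM in ZnF4-/-. The others of the 15 largest were Gm4371, Akr1c18, Dapl1, Aldh1l1, Iigp1 and Pcsk1, with log2 differences from 3.20 to 4.40. Iigp1 encodes an interferon-inducible GTPase and Pcsk1 a prohormone convertase. Leaving out any library ended none of these calls.

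Of the genes that were lower in ZnF4-/-, the 15 with the largest differences included some raised in ZnF1-/- and some lowered in ZnF4-/-. Crispld2, a secreted glycoprotein gene (chr8:122516338-122576693, plus strand), had the largest fall from ZnF1-/- to ZnF4-/-. It was at 6.36 and 7.54 RPKM in ZnF1-/- and 0.38 and 0.62 RPKM in ZnF4-/-, with wild type at 0.84 to 1.23 RPKM (log2 difference -2.90, SE 0.20, adjusted p = 8.44e-05). Here ZnF1-/- stood above wild type (2.38 log2, adjusted p = 0.00134 in the 7-library fit). Crispld2 passed the filter only through its ZnF1-/- values and so had to differ. Sema4g, a transmembrane semaphorin, was at 13.32 and 15.04 RPKM in ZnF1-/-, and at 2.64 and 1.68 RPKM in ZnF4-/- where wild type lay at 2.66 to 3.15 RPKM (-2.49, SE 0.18). Dkkl1, a secreted protein related to the Dickkopf Wnt antagonists, was at 7.35 and 11.42 RPKM in ZnF1-/- and 1.92 and 1.34 RPKM in ZnF4-/- (-2.20, SE 0.23; wild type 0.49 to 1.35 RPKM).

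In other genes of the 15, ZnF1-/- lay with wild type. Dclk2, a doublecortin-like kinase, was at 10.93 and 13.10 RPKM in ZnF1-/-, 10.36 to 14.25 RPKM in wild type and 2.42 and 3.78 RPKM in ZnF4-/- (-1.82, SE 0.15). Fgf13, an intracellular member of the FGF family, fell from 16.28 and 11.05 RPKM to 2.98 and 3.35 RPKM, with wild type at 10.06 to 14.58 RPKM (-1.93, SE 0.18). Mcoln3, an endolysosomal cation channel, and Cacna1e, the pore subunit of a voltage-gated calcium channel, followed the same order. Mcoln3 went from 6.57 and 7.49 RPKM to 1.55 and 2.25 RPKM (-1.66, SE 0.17), and Cacna1e from 7.09 and 7.91 RPKM to 1.76 and 2.37 RPKM (-1.65, SE 0.16). Lamc1, a laminin chain, and the long RNA 5730422E09Rik lay between the mutants in wild type, with log2 differences of -2.08 and -2.63.

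The rest of the 15 largest falls were E330020D12Rik, A830010M20Rik, Hdac11, Mir25 and Mir142. E330020D12Rik, Hdac11, Mir25 and 5730422E09Rik, given above, also passed the filter only through their ZnF1-/- values. The exons of A830010M20Rik overlap those of 2 coding genes, so its reads cannot be assigned with certainty. Mir25 and Mir142 are rows of 85 and 65 bases for short precursors in poly(A) RNA. Mir142 was at 95.28 RPKM in ZnF1-/- replicate 1 and between 4.19 and 19.53 RPKM in the other 6 libraries, so its call rests on the block, and its adjusted p without the block was 0.817. Leaving out any library ended none of these 15 calls.

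**Figure D3:**
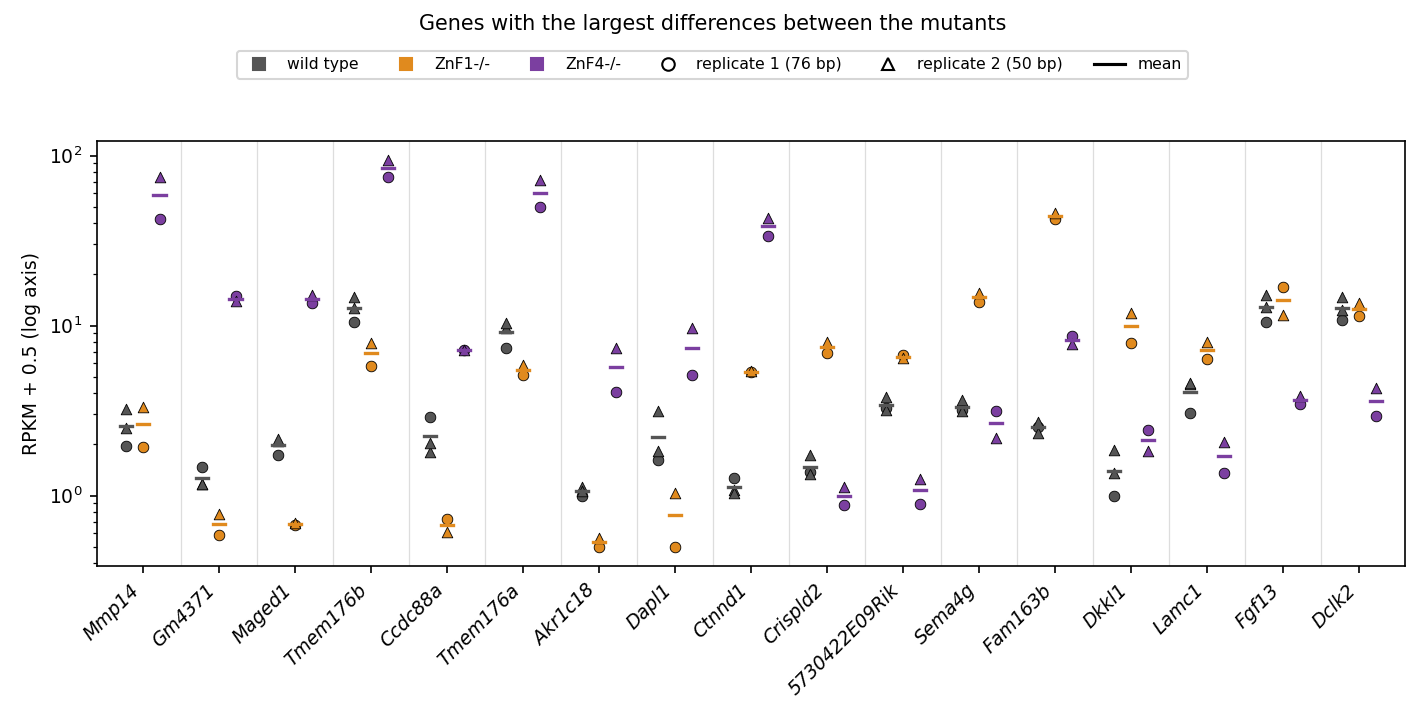
RPKM + 0.5 on a log axis in each of the 7 libraries for the 8 largest rises, Ctnnd1, and the 8 largest falls among rows of at least 200 bases; circles are 76 bp and triangles 50 bp libraries, and bars are group means. In the left genes the ZnF4-/- points stand alone at the top, as for Mmp14 at 41.84 and 74.30 RPKM, and in Sema4g and Fam163b the ZnF1-/- points do.

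Ctnnd1 and Fam163b had moved away from wild type in both mutants, by different amounts. Ctnnd1, the gene of p120 catenin, a protein that holds cadherins at the cell surface, was at 0.53 to 0.77 RPKM in wild type, 4.82 and 4.88 RPKM in ZnF1-/- and 33.11 and 42.44 RPKM in ZnF4-/-. The step between the mutants was 2.83 log2 (SE 0.13, adjusted p = 9.05e-06). Fam163b had the opposite order of mutants, with 1.85 to 2.21 RPKM in wild type, 8.24 and 7.28 RPKM in ZnF4-/- and 41.63 and 45.28 RPKM in ZnF1-/- (-2.41, SE 0.12, adjusted p = 1.5e-05). Pmaip1, which encodes the pro-apoptotic BH3-only protein Noxa, was graded like Ctnnd1, at 0.73 to 0.93, 1.90 and 1.52, and 6.51 and 6.27 RPKM (1.65, SE 0.17). Syt14, a synaptotagmin chosen after its values were seen, went from 1.29 to 1.48 RPKM in wild type to 7.44 and 6.91 in ZnF1-/- and 17.56 and 18.48 in ZnF4-/- (1.27, SE 0.12). Leaving out any library ended none of the calls of Ctnnd1, Fam163b and Pmaip1.

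At 92 of the called genes ZnF1-/- was away from wild type while ZnF4-/- stayed within 0.5 log2 of it. The 10 with ZnF1-/- furthest away were Sema4g, Mir142, Zfp820, Plekhg3, Car2, Myo6, Snord71, Lrrn4, Plod2 and 2210010C17Rik. Plekhg3, a guanine nucleotide exchange factor, was at 6.05 and 7.34 RPKM in ZnF1-/-, 2.28 and 2.34 RPKM in ZnF4-/- and 1.95 to 2.35 RPKM in wild type (-1.35, SE 0.16, adjusted p = 0.00124). Car2, a carbonic anhydrase, was at 8.64 and 13.31 RPKM in ZnF1-/-, 4.30 and 4.48 RPKM in ZnF4-/- and 3.34 to 4.50 RPKM in wild type (-1.20, SE 0.16). The ZnF1-/- values of both genes lay above all others. Zfp820, a zinc finger gene, went the other way, at 0.25 and 0.11 RPKM in ZnF1-/-, 2.14 and 1.95 RPKM in ZnF4-/- and 1.07 to 1.95 RPKM in wild type (1.91, SE 0.28). Plod2, a collagen lysyl hydroxylase, was at 1.21 RPKM in both ZnF1-/- libraries, 2.61 and 3.34 RPKM in ZnF4-/- and 3.09 to 3.90 RPKM in wild type (1.02, SE 0.21). Snord71 is a row of 65 bases, and its ZnF1-/- difference from wild type did not pass the test (adjusted p = 0.097), while those of the other 9 did. Without ZnF1-/- replicate 1 the calls of Lrrn4, 2210010C17Rik, Plod2 and Snord71 were lost, without ZnF1-/- replicate 2 those of Myo6 and Plod2, and without ZnF4-/- replicate 1 that of Snord71.

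Markers of other cells of the thymus were examined before the thymocyte groups, because a whole-organ suspension holds them in varying amounts. These lists and those below were chosen with earlier results of these data known. Their counts beside all tested genes are therefore descriptive and no independent test. In such bulk RNA, fewer cells of a type and less RNA per cell cannot be told apart. Of 11 tested macrophage and dendritic cell markers 7 were higher in ZnF4-/- and none lower, beside 5.98% and 2.95% of all tested genes. The markers had a median log2 difference of 0.81. Their summed level was 55.55 and 81.12 RPKM in ZnF1-/-, 112.2 and 146.5 RPKM in ZnF4-/- and 65.95 to 92.71 RPKM in wild type. Lyz2, lysozyme of myeloid cells, was at 20.51 and 39.53 RPKM in ZnF1-/- and 56.79 and 73.87 RPKM in ZnF4-/- (1.17, SE 0.14, adjusted p = 0.00102). Csf1r, the growth factor receptor of macrophages, was at 1.30 and 1.72 RPKM and 2.92 and 3.68 RPKM. With all 7 libraries in the fit 5 of the 7 calls held, and those of Csf1r and C1qb were lost. Of the 7, 1 held without ZnF1-/- replicate 1, 3 without ZnF1-/- replicate 2 and 2 without ZnF4-/- replicate 2. Siglech, a marker of plasmacytoid dendritic cells, lay the other way, at 1.32 and 0.75 RPKM in ZnF1-/- and 0.16 and 0.06 RPKM in ZnF4-/-, under the filter.

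All 5 tested erythroid markers were higher in ZnF4-/-, beside 5.98% of all tested genes. The markers summed to 20.03 and 55.61 RPKM in ZnF1-/-, 95.14 and 115.6 RPKM in ZnF4-/- and 22.59 to 58.58 RPKM in wild type. These include the near-identical pairs Hba-a1 and Hba-a2 and Hbb-b1 and Hbb-b2, whose reads cannot be separated, so they stand for about 3 measurements. The calls of Hba-a1 and Hba-a2 were lost with all 7 libraries in the fit, and those of Alas2, Hbb-b1 and Hbb-b2 without ZnF1-/- replicate 1. Thymic epithelial markers summed to 9.12 and 11.40 RPKM in ZnF1-/- and 19.74 and 22.38 RPKM in ZnF4-/-, with wild type at 9.45 to 11.65 RPKM. Most of the difference between the mutants in this sum lay in Krt18, described above, at 0.69 and 0.62 RPKM in ZnF1-/- and 7.58 and 12.35 RPKM in ZnF4-/-. Of the 4 tested, Krt18 was the one called. Its usual keratin partner Krt8 was at 0.00 to 0.35 RPKM, Krt14 at 0.00 to 0.01 RPKM and the epithelial regulator Foxn1 at 0.00 to 0.06 RPKM over all 7 libraries. Of the 12 B cell markers 2 were tested and they went opposite ways. Cd79a was at 0.38 and 0.47 RPKM in ZnF1-/- and 1.83 and 1.93 RPKM in ZnF4-/- (1.36, SE 0.26), close to wild type at 1.40 to 1.74 RPKM. Its partner in the B cell receptor, Cd79b, was at 25.36 and 35.01 RPKM and 10.64 and 12.04 RPKM (-1.36, SE 0.12; wild type 15.03 to 19.43 RPKM). Of 12 fibroblast and endothelial markers, 2 were tested and neither was called. Pdgfra was listed at 0.00 in all 7 libraries. What these markers contribute to the differences in other genes was not tested.

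The Ikaros family itself was higher in ZnF4-/-: 4 of its 5 genes were called, all upwards, with a median log2 difference of 0.86, where 8.93% of all tested genes were called and their median was -0.029. Ikzf3, encoding Aiolos, was at 83.70 and 85.69 RPKM in ZnF1-/- and 150.88 and 163.30 RPKM in ZnF4-/- (0.89, SE 0.10, adjusted p = 0.000821), and wild type lay at 82.43 to 95.46 RPKM. The ZnF4-/- values stood above all others. Ikzf2, encoding Helios, rose from 16.54 and 12.75 RPKM to 27.90 and 25.52 RPKM (0.86, SE 0.12), and Ikzf4, encoding Eos, from 1.85 and 2.04 RPKM to 5.50 and 7.83 RPKM (1.53, SE 0.18). Ikzf5, encoding Pegasus, was not called (0.072, SE 0.15, adjusted p = 0.838). The Ikzf2 call was lost without either ZnF1-/- library. Of the 13 NuRD subunits tested, 2 were called lower and 11 were not called, beside 2.95% of all tested genes called lower. The 2 were Mta3 (-0.46, SE 0.11, adjusted p = 0.0312 by limma) and Mbd2, a methyl-CpG binding protein (-0.48, SE 0.10, adjusted p = 0.0212). Chd4, the remodelling ATPase, was at 93.35 and 121.21 RPKM in ZnF1-/- and 87.00 and 119.43 RPKM in ZnF4-/- and was not called. The Mta3 call did not survive the loss of any library, and that of Mbd2 was kept only without ZnF4-/- replicate 1.

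Notch receptors and their targets drive early T cell commitment, and 3 of the 9 tested were higher and 1 lower in ZnF4-/-. Over all tested genes 5.98% were higher and 2.95% lower. Notch1 was at 31.14 and 53.83 RPKM in ZnF1-/- and 82.52 and 92.99 RPKM in ZnF4-/- (1.09, SE 0.14, adjusted p = 0.00186), and both ZnF4-/- values exceeded wild type at 34.58 to 63.22 RPKM. Dtx1, a Notch-induced ubiquitin ligase, rose from 3.13 and 6.68 RPKM to 18.89 and 13.40 RPKM (1.69, SE 0.28). Ptcra, the pre-T cell receptor alpha chain, rose from 14.60 and 24.48 RPKM to 35.52 and 34.19 RPKM (0.86, SE 0.17). Nrarp, a Notch-induced inhibitor of the pathway, went the other way, from 2.01 and 2.53 RPKM to 0.62 and 0.49 RPKM (-1.39, SE 0.25, adjusted p = 0.00985), below wild type at 1.17 to 2.07 RPKM. Hes1, Myc, Il2ra, Notch2 and Notch3 were not called. Il2ra was at 14.35 and 21.22 RPKM in ZnF1-/- and 13.67 and 9.72 RPKM in ZnF4-/-. The list's median differed between the batches, at 0.80 in the 76 bp pair and -0.060 in the 50 bp pair. Without ZnF1-/- replicate 1 the calls of Notch1, Dtx1 and Ptcra were lost, and that of Ptcra was also lost without ZnF4-/- replicate 1 or ZnF1-/- replicate 2.

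Genes of double-positive thymocytes, the main population of the organ, were called lower at 4 of 14 and higher at 1, which was Ptcra. The shares over all tested genes were 2.95% lower and 5.98% higher. Cd8a was at 636.41 and 622.71 RPKM in ZnF1-/- and 396.79 and 386.04 RPKM in ZnF4-/- (-0.68, SE 0.11, adjusted p = 0.00532). Wild type lay between, at 498.87 to 612.73 RPKM. Cd8b1, the other CD8 chain, went from 659.42 and 945.93 RPKM to 440.45 and 657.51 RPKM (-0.55, SE 0.11). Ccr9, a chemokine receptor, went from 260.73 and 268.47 RPKM to 171.60 and 207.90 RPKM (-0.49, SE 0.11, adjusted p = 0.0275). Rag1, Rag2, Dntt and Cd4 had log2 differences of -0.24 to -0.28 that did not pass the test. The Ccr9 call was lost with all 7 libraries in the fit (adjusted p = 0.0839). The other 3 lower calls were lost without either ZnF1-/- library or without ZnF4-/- replicate 2.

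Genes of mature thymocytes and of exit from the thymus went mostly upwards, with 11 of 22 higher and 2 lower and a median log2 difference of 0.41. Among all tested genes 5.98% were higher and 2.95% lower. S1pr1, the sphingosine phosphate receptor that guides exit, was at 7.48 and 9.29 RPKM in ZnF1-/- and 20.92 and 26.35 RPKM in ZnF4-/- (1.44, SE 0.11, adjusted p = 0.000116; wild type 9.67 to 11.87 RPKM). Ccr7, a chemokine receptor of cells entering the medulla, rose from 23.87 and 30.49 RPKM to 45.73 and 70.27 RPKM (1.06, SE 0.11). Itgae, the CD103 integrin chain, rose from 2.92 and 3.79 RPKM to 12.23 and 17.81 RPKM (1.99, SE 0.14), above wild type at 5.02 to 6.53 RPKM. Slfn1 (1.37, SE 0.12) and Ms4a6b (1.35, SE 0.11) rose by like amounts. Of the lower genes, Itga4, the alpha 4 integrin chain, was at 43.43 and 30.10 RPKM in ZnF1-/- and 15.60 and 10.92 RPKM in ZnF4-/- (-1.44, SE 0.11), and its exons overlap those of Cerkl. Cd5, Cd6, Cd27 and Cd69 were not called. Without ZnF1-/- replicate 1 the list held 6 higher and 1 lower calls, and without ZnF1-/- replicate 2 it held 7 and 1. The calls of S1pr1, Ccr7, Itgae, Slfn1, Ms4a6b and Itga4 held in each case.

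**Figure D4:**
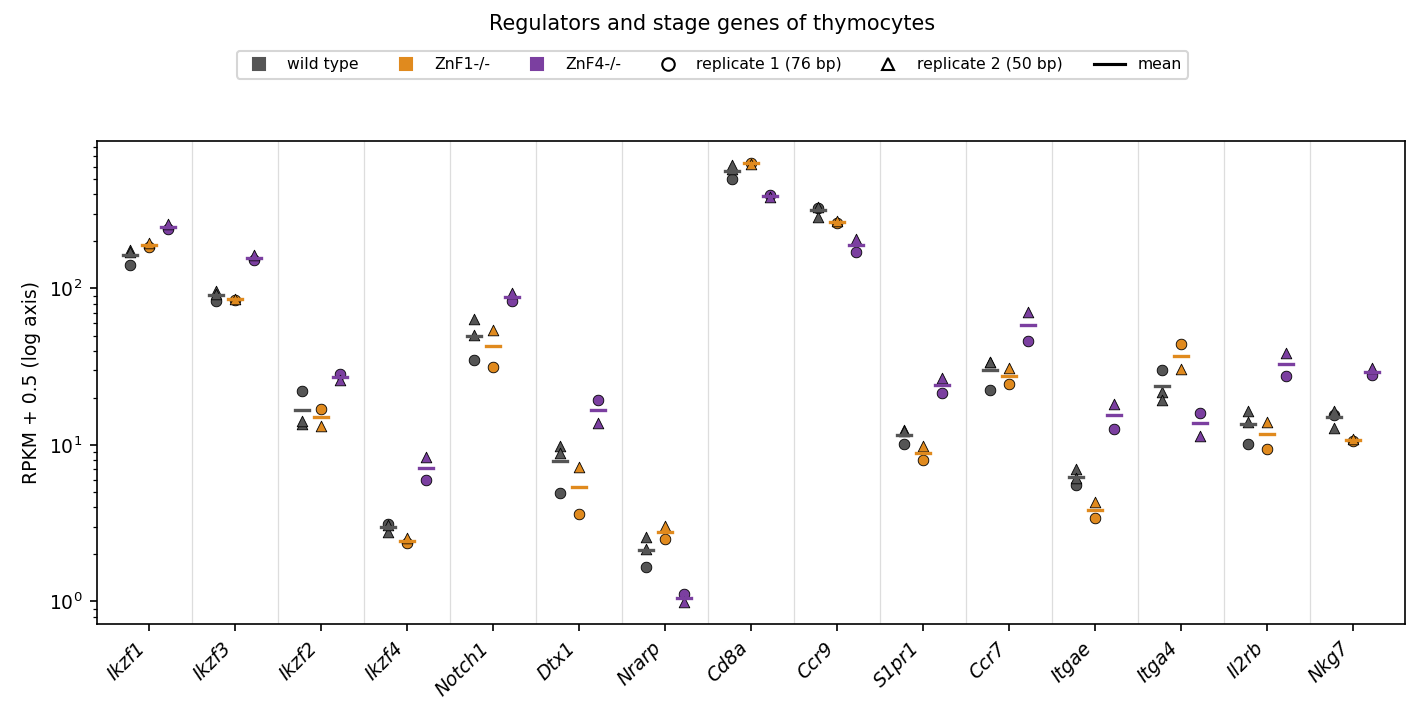
RPKM + 0.5 on a log axis in each of the 7 libraries for genes of the Ikaros family, the Notch pathway, double-positive and mature thymocytes; circles are 76 bp and triangles 50 bp libraries, and bars are group means. The ZnF4-/- points lie above both other groups for Ikzf3 to Dtx1 and for S1pr1 to Itgae, and below them for Nrarp, Cd8a, Ccr9 and Itga4.

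Of 25 components of T cell receptor signalling, 1 was called, beside 8.93% of all tested genes. It was Nfatc3, a calcium-regulated transcription factor (-0.41, SE 0.11, adjusted p = 0.0494), and its adjusted p with all 7 libraries in the fit was 0.0717. The CD3 chains Cd3d, Cd3e and Cd3g had log2 differences of 0.070, 0.022 and 0.16. Of 20 T lineage transcription factors 1 was higher and 2 lower, a share of 15% beside 8.93% of all genes. Id2, an inhibitor of E proteins, rose from 11.04 and 9.83 RPKM to 21.24 and 13.79 RPKM (0.69, SE 0.14, adjusted p = 0.0151). Myb went from 185.52 and 226.13 RPKM to 147.48 and 145.72 RPKM (-0.48, SE 0.11), and E2f2, a cell cycle regulator, had a difference of -0.52 (SE 0.10). Tcf7, Gata3, Bcl11b and Runx1 were not called. With all 7 libraries in the fit the calls of Id2 (adjusted p = 0.0824) and Myb (0.0652) were lost, and that of E2f2 was lost without either ZnF1-/- library or without ZnF4-/- replicate 2.

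Genes of innate-like and cytotoxic lymphocytes were called higher at 8 of 16 and lower at 1, with a median log2 difference of 0.83. The shares over all tested genes were 5.98% higher and 2.95% lower. Klrd1, Eomes and Cxcr3 passed the filter only through their ZnF4-/- values and so had to differ. With a filter of 5 RPKM the list held 8 genes, 3 higher and 1 lower, and a median of 0.34. Nkg7, a granule membrane protein, was at 10.05 and 10.49 RPKM in ZnF1-/-, 12.26 to 16.07 RPKM in wild type and 27.52 and 30.35 RPKM in ZnF4-/- (1.45, SE 0.11, adjusted p = 9.74e-05). Klrd1, the CD94 receptor chain, rose from 0.65 and 0.71 RPKM to 3.76 and 3.78 RPKM (1.86, SE 0.21). Eomes, a transcription factor of memory-like and cytotoxic cells, rose from 0.23 and 0.18 RPKM to 1.70 and 2.66 RPKM (1.90, SE 0.29), and Cxcr3 from 0.63 and 0.56 RPKM to 2.98 and 3.34 RPKM (1.74, SE 0.23). The ZnF4-/- values of these 4 genes were the highest of the 7 libraries. Sox13, a factor of gamma delta T cells, was lowest in ZnF1-/-, at 1.40 and 1.79 RPKM beside 4.22 and 4.56 RPKM in ZnF4-/- and 2.91 to 4.26 RPKM in wild type (1.23, SE 0.18). The lower gene was Sh2d1a, the adaptor SAP of SLAM receptors, at 81.67 and 86.39 RPKM and 52.27 and 60.68 RPKM (-0.57, SE 0.10). Of the list, 6 genes had too low a level to be tested. Those named and called held with any library left out, apart from Sh2d1a, which was lost without either ZnF1-/- library.

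Regulatory T cell genes were called higher at 10 of 13 and lower at none, beside 5.98% and 2.95% of all tested genes. The list had a median log2 difference of 0.86. Tnfrsf4, the OX40 receptor, rose from 6.00 and 7.91 RPKM to 15.39 and 19.65 RPKM (1.28, SE 0.12, adjusted p = 0.000306). Nrp1, neuropilin 1, rose from 10.62 and 15.66 RPKM to 25.47 and 44.57 RPKM (1.35, SE 0.12), and Capg, an actin-capping protein, from 2.13 and 4.59 RPKM to 6.91 and 10.01 RPKM (1.27, SE 0.16). Ikzf2, Ikzf4 and Il2rb belong to this list too. The defining factor Foxp3 was at 2.82 and 4.44 RPKM in ZnF1-/- and 4.77 and 6.10 RPKM in ZnF4-/- and did not pass (0.54, SE 0.16, adjusted p = 0.077). Nor did Il2ra, whose difference was negative (-0.58, SE 0.21). The list held 6 higher and 1 lower calls without ZnF1-/- replicate 1, 5 and 0 without ZnF1-/- replicate 2, and 7 and 0 without ZnF4-/- replicate 2.

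Cytokine receptors moved in both directions, with 6 of 21 higher, 3 lower and a median of 0.001. Among all tested genes 5.98% were higher and 2.95% lower. Il18r1, the interleukin 18 receptor, had the largest rise, from 0.39 and 0.29 RPKM to 3.87 and 5.96 RPKM (2.66, SE 0.25, adjusted p = 0.000311), with wild type at 0.90 to 1.39 RPKM. Il6ra, the interleukin 6 receptor, rose from 2.32 and 2.88 RPKM to 7.78 and 10.91 RPKM (1.65, SE 0.15). Il2rb, the beta chain shared by the interleukin 2 and 15 receptors, rose from 8.89 and 13.49 RPKM to 27.20 and 38.00 RPKM (1.51, SE 0.11). Among the lower genes, Il12rb1 went from 9.23 and 12.72 RPKM to 4.08 and 2.98 RPKM (-1.51, SE 0.20) and Ifngr1, the interferon gamma receptor, from 173.60 and 230.98 RPKM to 85.85 and 110.61 RPKM (-1.04, SE 0.10). Ifngr1 in ZnF4-/- was below wild type at 113.63 to 170.88 RPKM, and in ZnF1-/- above it. Without ZnF1-/- replicate 2 the Il12rb1 call was lost, and 3 higher and 1 lower calls were left in the list. Without ZnF1-/- replicate 1 there were 3 higher and 3 lower.

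Interferon-stimulated genes were called higher at 10 of 22 and lower at none, beside 5.98% and 2.95% of all tested genes. Oasl2 rose from 2.01 and 1.38 RPKM to 10.03 and 12.53 RPKM (2.43, SE 0.20, adjusted p = 0.000119), Ifi44 from 0.24 and 0.20 RPKM to 2.14 and 3.59 RPKM (2.19, SE 0.28) and Oas3 from 3.33 and 2.50 RPKM to 7.32 and 9.14 RPKM (1.36, SE 0.19). These are antiviral genes, and their ZnF4-/- values were also above wild type. Isg15, Irf7, Ifit2, Ifit3, Stat2 and Bst2, also targets of interferon, were not called, and Isg15 overlapped between the mutants at 8.28 and 5.93 RPKM and 6.02 and 10.55 RPKM. The list's median was 0.29 in the 76 bp pair and 0.99 in the 50 bp pair. It held 7 calls without ZnF1-/- replicate 1 or without ZnF4-/- replicate 2, 4 without ZnF1-/- replicate 2 and 14 without ZnF4-/- replicate 1. The summed macrophage markers given above were higher in the same ZnF4-/- libraries, and their part in this difference was not tested.

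Adhesion and junction genes were called higher at 9 of 20 and lower at 1, beside 5.98% and 2.95% of all tested genes. Like the other lists, this one was chosen with earlier results of these data known, so its share is not independent of them. Besides Ctnnd1 and Krt18, Cldn4, a tight junction claudin, rose from 5.10 and 8.81 RPKM to 29.31 and 34.21 RPKM (2.16, SE 0.14, adjusted p = 8.44e-05), well above wild type at 6.73 to 12.95 RPKM. Ctnna1, encoding alpha catenin, rose from 9.29 and 14.30 RPKM to 19.59 and 28.01 RPKM (0.99, SE 0.11) and Itgb3 from 5.07 and 6.56 RPKM to 8.71 and 12.72 RPKM (0.82, SE 0.13). Ctnnb1, encoding beta catenin, was at 73.02 and 100.79 RPKM and 70.24 and 97.83 RPKM and was not called (-0.049, SE 0.098). The cadherin Cdh1 was near 1 RPKM in every library and was not called. The list held 5 higher calls without ZnF1-/- replicate 1 and 6 without ZnF1-/- replicate 2.

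Of 27 cell cycle and replication genes 1 was called, beside 8.93% of all tested genes: Cdk1, the mitotic kinase (-0.53, SE 0.13, adjusted p = 0.0412 by limma). Of the 27, 24 had a negative difference, with a median of -0.19. Over all tested genes 4721 of 10572 had a positive difference, and the median was -0.029. The Cdk1 call was lost with all 7 libraries in the fit (adjusted p = 0.0557). Mki67 was at 163.58 and 112.73 RPKM in ZnF1-/- and 129.39 and 108.91 RPKM in ZnF4-/-. Of 10 G1 regulators 2 were higher, beside 5.98% of all tested genes. Ccnd2, encoding cyclin D2, rose from 19.58 and 26.96 RPKM to 33.71 and 59.06 RPKM (0.94, SE 0.12). Cdkn1a, encoding the inhibitor p21, rose from 4.23 and 5.14 RPKM to 8.20 and 8.38 RPKM (0.77, SE 0.14). The Cdkn1a call was lost with all 7 libraries in the fit (adjusted p = 0.0907), and that of Ccnd2 without either ZnF1-/- library. In the BCL-2 family 2 of 12 were higher, beside 5.98% of all tested genes, and 1 of 12 with all 7 libraries in the fit. They were Pmaip1 and Bmf, both BH3-only genes that promote cell death. Bmf was at 15.01 and 28.21 RPKM and 22.68 and 37.55 RPKM (0.49, SE 0.11, adjusted p = 0.0248), with an adjusted p of 0.194 in the 7-library fit. Bcl2, Bcl2l1, Mcl1, Bax and Bcl2l11 were not called.

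The immediate-early genes Fos and Jun set ZnF1-/- replicate 1 apart from the other libraries. Fos was at 15.79 RPKM there and 1.05 to 3.75 RPKM elsewhere, and Jun at 16.09 RPKM and 1.29 to 4.03 RPKM. The list of immediate-early and heat-shock genes summed to 375.3 RPKM there, the highest of the 76 bp libraries. Wild type and ZnF4-/- replicate 1 summed to 248 and 304.4 RPKM, and the 50 bp libraries to 383.6 to 442.4 RPKM. The median log2 difference of this list in the 76 bp pair was -0.034. Of 15 tested genes of the list 1 was higher and 1 lower, beside 5.98% and 2.95% of all tested genes. Fosl2 was the higher (1.20, SE 0.23) and Zfp36, an RNA-decay factor, the lower (-0.51, SE 0.12). The Fosl2 call was lost without ZnF1-/- replicate 1, and that of Zfp36 with all 7 libraries in the fit (adjusted p = 0.229). Replication-dependent histone genes, whose transcripts mostly lack poly(A) tails, summed to 522 and 462.6 RPKM in replicate 1 of ZnF1-/- and ZnF4-/- and to 120.6 and 102.7 RPKM in replicate 2. Of 44 tested 1 was called, beside 8.93% of all tested genes: Hist2h2be (-0.63, SE 0.16). Of 79 cytosolic ribosomal protein genes 1 was called, beside 8.93% of all tested genes. It was Rpl39l, at 0.09 and 0.69 RPKM in ZnF1-/- and 1.18 and 2.63 RPKM in ZnF4-/- (1.45, SE 0.27). Both calls were lost without ZnF1-/- replicate 1 and without ZnF4-/- replicate 2, and that of Hist2h2be also without ZnF4-/- replicate 1. The early progenitor list had 4 tested genes and no calls by limma in the 4-library fit. In the 7-library fit Kit, the stem cell factor receptor, was called higher (0.59, adjusted p = 0.0386) and Cd44 lower (-0.50, adjusted p = 0.04). Their adjusted p in the 4-library fit was 0.0667 and 0.0553.

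**Figure D5:**
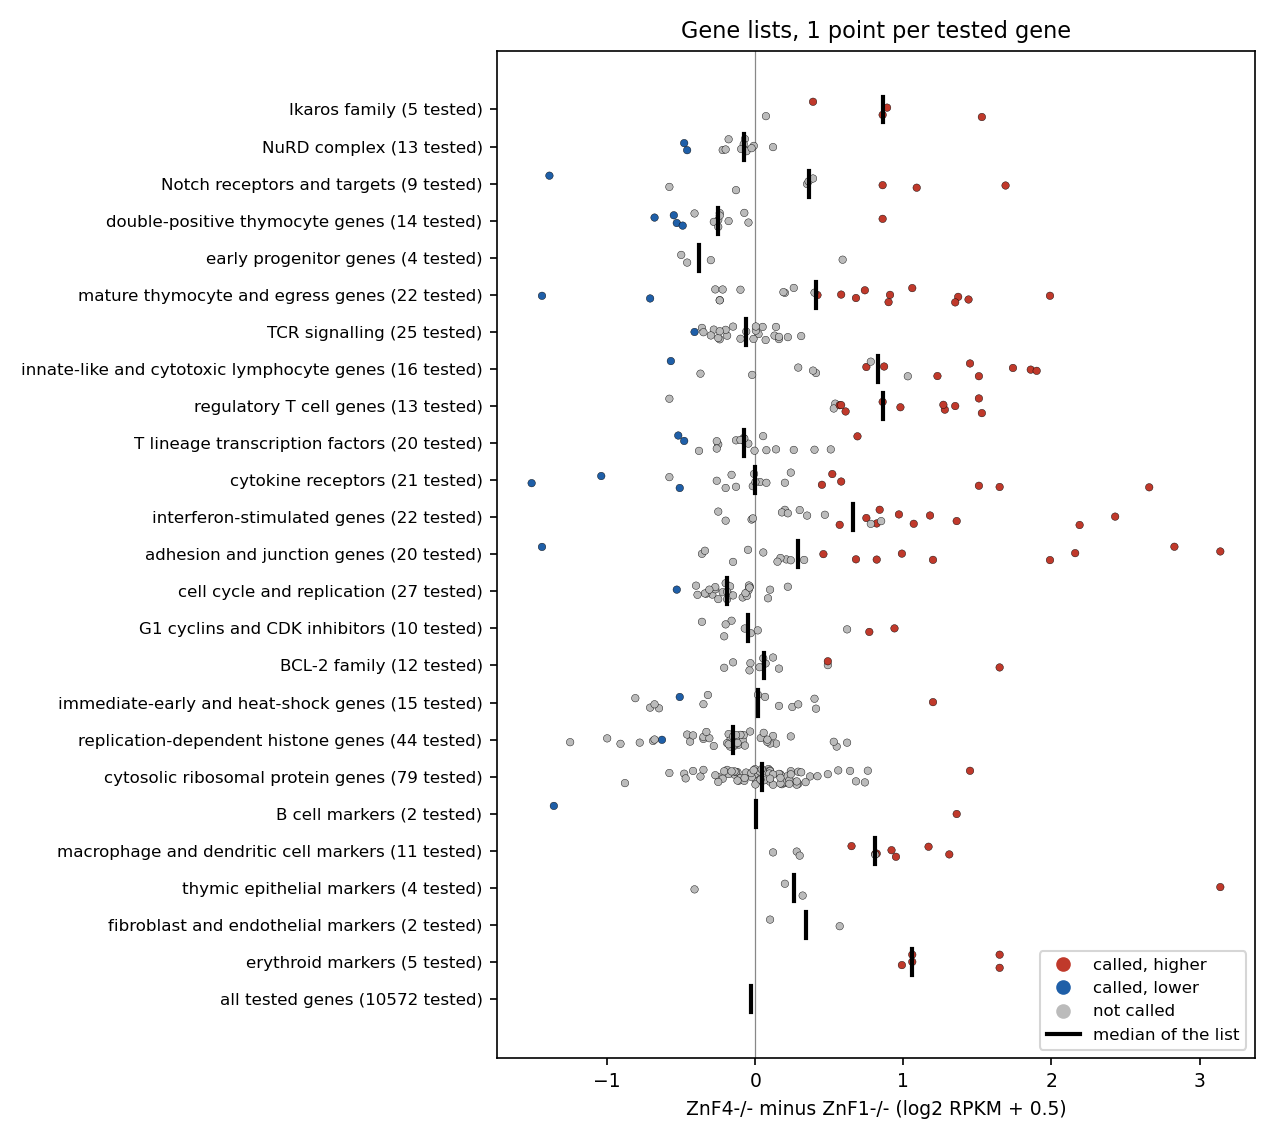
Log2 difference (RPKM + 0.5) between ZnF4-/- and ZnF1-/- for every tested member of the 24 gene lists, 1 point per gene, red where called higher and blue where called lower, with a bar at each list's median; the last line gives the median of all tested genes, -0.029. The points of T cell receptor signalling and of the cell cycle cluster near 0, and those of regulatory T cell genes (median 0.86) lie mostly to the right.

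The most abundant called genes differed by small amounts. Of the 10 with the highest mean level, B2m, the MHC class I light chain, was the most abundant that rose, from 626.92 and 559.28 RPKM to 885.05 and 918.60 RPKM (0.61, SE 0.12, adjusted p = 0.0156). Shisa5 rose from 108.65 and 154.15 RPKM to 183.64 and 260.97 RPKM (0.76, SE 0.10). Anxa2, Psap, Endou, Myb, Ccr9, Cd8a and Cd8b1 had differences of -0.46 to -0.68, and Ikzf1 was higher. With all 7 libraries in the fit the calls of B2m, Psap, Endou, Myb, Ccr9 and Ikzf1 were lost. Those of Cd8a, Cd8b1, Anxa2 and Shisa5 were lost without either ZnF1-/- library.

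Called genes were spread over the genome, with 6 runs of at least 3 neighbouring genes called in the same direction. Of 7762 pairs of neighbouring tested genes within 100000 bases, both were called in 98 (1.26%), in the same direction in 81. The runs higher in ZnF4-/- were Sertad4, Syt14 and Diexf on chromosome 1, H2-Gs10, H2-Q6 and H2-Q7 on chromosome 17, C1qb, C1qc and C1qa on chromosome 4, and Amica1, Scn2b and Scn4b on chromosome 9. The H2-Q genes are near-identical in sequence, and their reads may be shared. The runs lower in ZnF4-/- were Tctex1d1, BB031773, Insl5 and Wdr78 and, also on chromosome 4, the peptidyl arginine deiminases Padi4, Padi3 and Padi2.

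Promoters were searched for the hexamer TGGGAA, which holds the GGGAA core that Ikaros is known to bind, on both strands, in windows from 250 bases before to 50 bases after the transcription start (RefSeq, GRCm38.p6). It was in 97 of 423 promoters of the higher genes (22.9%), 54 of 211 of the lower genes (25.6%) and 1678 of 7445 of all tested genes with a promoter in the table (22.5%). Among the genes higher by at least 2 log2 it was in 12 of 48 (25.0%). The 250 bases before the start are shown for the gene with the largest rise, for a strongly changed gene whose promoter holds the hexamer, and for the gene most raised in ZnF1-/-, located by exact match in mm9. Capitals mark the hexamer.
Mmp14 (chr14:55050185-55050434, plus strand): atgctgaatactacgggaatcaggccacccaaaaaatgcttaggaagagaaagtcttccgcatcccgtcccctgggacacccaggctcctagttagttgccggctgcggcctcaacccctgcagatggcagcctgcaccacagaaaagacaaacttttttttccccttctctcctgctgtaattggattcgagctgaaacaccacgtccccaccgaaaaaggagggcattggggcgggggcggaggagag
Maged1 (chrX:91787365-91787614, minus strand): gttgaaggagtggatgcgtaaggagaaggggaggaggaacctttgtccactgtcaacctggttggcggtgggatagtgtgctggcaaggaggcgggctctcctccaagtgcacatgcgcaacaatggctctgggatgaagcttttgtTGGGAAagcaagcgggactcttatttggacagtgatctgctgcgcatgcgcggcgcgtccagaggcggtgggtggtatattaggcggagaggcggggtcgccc
Fam163b (chr2:26997998-26998247, minus strand): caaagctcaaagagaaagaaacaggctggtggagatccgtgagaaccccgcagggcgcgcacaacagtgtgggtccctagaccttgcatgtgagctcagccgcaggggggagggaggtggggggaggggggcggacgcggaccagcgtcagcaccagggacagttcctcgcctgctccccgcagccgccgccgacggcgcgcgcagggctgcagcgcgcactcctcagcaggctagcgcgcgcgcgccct
Starts are those of RefSeq, and for Maged1 the window reaches 118 bases into the gene as the mm9 annotation gives it. Its hexamer starts 103 bases before the RefSeq start and lies inside that stretch. The 250 bases shown for Mmp14 and for Fam163b hold no match to the hexamer. Those of Mmp14 do hold the shorter core GGGAA, on both strands, which was not searched for by itself. Binding was not measured in these libraries.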

How the data were processed

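RNA of whole thymus suspensions was sequenced as single-end reads of 76 bp (replicate 1) or 50 bp (the others), per the labels' protocols. The authors deposited 1 table of RPKM per gene, made with SeqMonk from exonic reads and NCBI annotation of mm9, with 1 transcript kept per gene, per the series' design text. TopHat and bedtools are named in the submitters' processing notes, and their versions are not given in the sources used here. Values were taken as deposited, as log2(RPKM + 0.5), for genes with a mean of 1 RPKM or more over the 4 mutant libraries. limma 3.58.1 (R 4.3.3) with a variance trend was fitted to the 4 mutant libraries with replicate number as a block (1 residual degree of freedom, prior 7.72), with two-sided p-values adjusted by Benjamini-Hochberg over 10572 genes. An exact permutation test of 2 against 2 libraries cannot go below p = 0.333, so single-gene statements rest on variance shared across genes. A fold change on this scale understates the change of low genes.

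The replicate number marks the sequencing batch in the labels, and deviations of same-numbered mutant libraries from their group means correlated at 0.655 across genes, which are not independent replicates. A fit of all 7 libraries (prior 4.94) gave the contrasts with wild type; fold differences between the mutants were the same in both, and only the spread differed. Leave-one-out fits used the 6 other libraries, with the lone mutant library assumed to vary like the others. The fit was tested on simulated data. Positions came from the mm9 annotation for 16274 genes matched by symbol and 93 by accession, with 367 unmatched.

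Genes named are the Ikaros family, the 15 largest differences each way among called genes, up to 6 called members per list, the 3 most abundant markers of each other cell type, the 10 most abundant called genes, the 10 with ZnF1-/- furthest from wild type and ZnF4-/- within 0.5 log2, and Xist and Ddx3y. Other list members and the genes with opposite changes against wild type were named after their values were seen. The comparison, its genes and the lists were chosen with earlier results of these data known. Alternatives tried were the block, the libraries in the fit, the pseudocount, the filter, 2 scalings, the variance trend and each library left out. A few called members of the lists are counted but not reported here by name.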

Additional observations from a re-analysis of the deposited data

Results flagged for a closer look

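At 16 genes the mutants departed from wild type in opposite directions, each passing the test against wild type in the 7-library limma fit, while the difference between the mutants also passed. The pair of contrasts shares the wild type libraries. At 11 of them ZnF4-/- was above and ZnF1-/- below wild type. The log2 difference between the mutants was 4.40 for Maged1, 3.63 for Tmem176b, 3.44 for Tmem176a, 3.44 for Ccdc88a, 3.29 for Dapl1 and 3.28 for Ccdc153. It was 2.43 for Fut10, a fucosyltransferase, 2.22 for Plekhf1, an endosomal protein, 1.35 for Ms4a6b, 1.30 for Faah, the hydrolase of fatty acid amides, and 1.25 for Ctsw, a cathepsin of cytotoxic lymphocytes.

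At the other 5 ZnF4-/- was below and ZnF1-/- above wild type. These were 5730422E09Rik (-2.63), Lamc1 (-2.08), Itga4 (-1.44), Cd79b (-1.36) and Ankrd6 (-1.31). Fut10 was at 0.58 and 0.55 RPKM in ZnF1-/-, 1.51 to 1.79 RPKM in wild type and 4.84 and 5.66 RPKM in ZnF4-/-. Plekhf1 was at 0.73 and 1.37, 2.97 to 4.24, and 6.00 and 7.15 RPKM in the same order, and no library of either mutant overlapped wild type. Ankrd6 had the reverse order, at 12.42 and 16.37, 7.93 to 9.83, and 5.28 and 5.67 RPKM. Dapl1 is the least secure of the 16 against wild type, with an adjusted p of 0.0494 for ZnF1-/-, and it was listed at 0.00 in ZnF1-/- replicate 1.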

How the results depend on the processing

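With 2 libraries per mutant and 1 residual degree of freedom per gene, the count of calls rests on the shared variance estimate, and calls of small size are the least secure. Against 944 calls (632 higher, 312 lower), limma gave 299 (259 and 40) with 7 libraries and no replicate block, 509 (310 and 199) with a filter of 5 RPKM, and 0 (0 and 0) with no filter on low values, where 2599 genes had an unadjusted p under 0.05; without the variance trend the lower calls numbered 145. Leaving out 1 mutant library, with wild type in the fit, gave 357 to 886 calls, 297 to 679 higher and 60 to 315 lower, beside 825 (596 and 229) with all 7 libraries and the block. The cause was not tested. Without the replicate block the 4 libraries gave 190 calls, 166 higher and 24 lower, all among the calls of the blocked fit. The share of higher genes was 66.9% in the blocked fit and 87.4% in the fit without the block. Both pseudocounts and both scalings, and the 7 libraries with the block, gave counts within 1.5 times. No called difference of a named gene changed sign under any alternative run. Of 119 named genes called, 101 were also called in the 7-library blocked fit and 54 without the block. Among the 76 bp libraries the estimated depth was lowest in ZnF4-/- replicate 1.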

Other observations

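Slc15a2, a peptide transporter gene, was the sole tested gene whose mutant pairs differed by at least 2 log2 in opposite directions. It was at 1.61 RPKM in ZnF1-/- replicate 1 and 33.03 RPKM in ZnF4-/- replicate 1, and at 26.15 and 0.01 RPKM in replicate 2, with 13.20 to 35.09 RPKM in wild type. The pair differences were 3.99 and -5.71, and the gene was not called (adjusted p = 0.826).

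H19, an imprinted long RNA, was lower than wild type in both mutants and lower in ZnF1-/- than in ZnF4-/-. It was at 0.99 and 1.64 RPKM in ZnF1-/-, 3.45 and 2.78 RPKM in ZnF4-/- and 5.80 to 10.23 RPKM in wild type (1.01 log2 between the mutants, SE 0.24, adjusted p = 0.0343). Cacng4, a calcium channel subunit gene, was higher than wild type in both, at 10.22 and 20.32 RPKM in ZnF1-/- and 6.63 and 12.34 RPKM in ZnF4-/- beside 0.30 to 1.65 RPKM in wild type. These 3 genes were chosen after their values were seen.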
